A study of Mus musculus with 77 samples.

Results

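The 10 genes described here are the platelet genes Pf4, Ppbp, Itga2b, Itgb3, Gp1ba, Gp1bb, Gp5, Gp9, Gp6 and Treml1, taken from the blood mRNA data by symbol. All 10 were among the 13084 genes of that table. They were chosen from these same blood values, so their levels and differences are a description. Counts of members called are given beside the share of all genes called, except in fits with sample weights, other processing or a library left out. Nothing is read from any of these counts in any blood mRNA comparison. The blood came from 25 male mice, 8 weeks old per the labels, of 2 inbred strains with no transgene or drug. The labels name them C57BL/6Crl (B6) and DBA/2Crl (D2), and the study's text C57BL/6NCrl and DBA/2NCrl. Defeated mice had gone through chronic social defeat stress (CSDS), daily confrontations with an aggressor for 10 days, and blood was taken 6 to 8 days after it ended. Control mice of the same strain were housed across a divider from an unfamiliar mouse and never met it physically. A social avoidance test against same-strain controls divided the defeated mice into resilient and susceptible, and mice at the extremes of that test were profiled, so the groups do not represent all defeated mice. There were 5 mice each of B6 control, B6 resilient, B6 susceptible, D2 control and D2 susceptible, and each mouse gave 1 library. Per the study, D2 resilient mice gave too little blood, and the series has no blood libraries of that group.

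Platelets are cell fragments without a nucleus that bud from megakaryocytes in the marrow and carry megakaryocyte RNA with them, and in blood they stop bleeding by sticking to exposed vessel wall and to each other. They bind von Willebrand factor through the GPIb-IX-V complex, collagen through glycoprotein VI and fibrinogen through the integrin alpha-IIb beta-3, and they release chemokines from their alpha granules. In whole blood the level of such a gene depends on the number of platelets and on the RNA in each of them, and fewer cells and less RNA per cell cannot be told apart.

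Conflicting group names were found for 2 D2 mice. D2 control mouse 2 (ED4_1) has a column named as susceptible, and D2 susceptible mouse 2 (ED4_15) a column named as control. The labels were used for the main values. The counts and medians of the platelet genes that compare D2 groups are also given with the groups of the column names and without both mice. The study reported more differentially expressed blood genes in susceptible against control mice in D2 than in B6. Here 589 genes were called in B6, and in D2 206 by the labels, 890 by the column names and 519 without both mice. Only the column names thus gave the order of the study, and which names are right was not settled here. Values are log2 CPM, read counts that the authors scaled to an effective size of each library. That size was between 0.644 and 1.54 times the recovered reads, which ranged from 9751603 to 15878495 (median 13290205). The members together took 0.201% of the reads in the lowest mouse, B6 control mouse 2, and 1.41% in the highest, D2 control mouse 3. Single members were read well above the counting floor, with 77 to 534 reads for Gp1ba, the lowest by median, and 9279 to 119117 reads for Ppbp. The lowest count of a member in any mouse was 75 reads, for Gp1bb. Of the exonic bases of Gp1bb, 92.9% lie on the same strand as exons of Sept5 or Gm49601, so its counts are uncertain. The other 9 members share no exonic base with another gene.

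Promoters are shown for the granule chemokines, which are neighbours in the genome and whose balance differed between the strains, and for Gp1ba and Gp5, subunits of 1 complex of which Gp1ba followed the other members least and Gp5 closely. RefSeq gave a promoter for 9 of the 10 members, from 250 bases before to 50 bases after the start of the gene, and sequences run 5′ to 3′ along the strand of the gene. Capitals mark the motif of GATA factors, spelled AGATAA, with T also taken as its first letter and G as its last letter, and GGAAGT, a motif of ETS factors, searched on both strands. The megakaryocyte factors GATA1 and FLI1 belong to these families.
Pf4 (chr5:90772185-90772484, plus strand, GRCm38.p6): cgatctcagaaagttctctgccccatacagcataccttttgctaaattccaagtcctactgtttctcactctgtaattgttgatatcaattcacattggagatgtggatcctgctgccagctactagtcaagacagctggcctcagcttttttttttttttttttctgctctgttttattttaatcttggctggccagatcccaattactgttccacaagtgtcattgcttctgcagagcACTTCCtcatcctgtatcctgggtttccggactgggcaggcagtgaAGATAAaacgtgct
Ppbp (chr5:90768268-90768567, plus strand, GRCm38.p6): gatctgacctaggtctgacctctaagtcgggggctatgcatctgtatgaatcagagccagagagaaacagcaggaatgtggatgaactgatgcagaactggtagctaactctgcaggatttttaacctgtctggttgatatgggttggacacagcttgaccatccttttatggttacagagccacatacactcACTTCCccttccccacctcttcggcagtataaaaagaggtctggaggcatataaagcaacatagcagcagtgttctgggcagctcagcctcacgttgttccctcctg
Gp1ba (chr11:70638872-70639171, plus strand, GRCm38.p6): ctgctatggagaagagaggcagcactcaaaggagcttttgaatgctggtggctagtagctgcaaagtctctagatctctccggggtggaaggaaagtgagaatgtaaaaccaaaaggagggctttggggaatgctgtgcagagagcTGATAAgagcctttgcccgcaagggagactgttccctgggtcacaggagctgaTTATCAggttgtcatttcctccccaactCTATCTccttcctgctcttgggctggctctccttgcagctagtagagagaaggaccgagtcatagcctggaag
Gp5 (chr16:30310732-30311031, minus strand, GRCm38.p6): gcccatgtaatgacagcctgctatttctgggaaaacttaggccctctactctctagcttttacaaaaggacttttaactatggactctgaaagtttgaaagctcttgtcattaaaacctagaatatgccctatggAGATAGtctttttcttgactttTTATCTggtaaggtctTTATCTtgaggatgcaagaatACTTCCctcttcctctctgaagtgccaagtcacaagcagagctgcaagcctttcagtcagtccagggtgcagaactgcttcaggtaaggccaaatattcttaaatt
The GATA letters were found in 5 of the 9 promoters and in 29.8% of all 32851 promoters of the table, and the GGAAGT letters in 6 of the 9 and in 23.8%. Gp1ba and Gp5 held 3 GATA matches each, and Pf4 held 1 GATA match after the start and 1 GGAAGT match that begins 10 bases before it. The Ppbp promoter held 1 GGAAGT match, 57 bases before the start, and no GATA match. These are letter matches, and binding was not measured.

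Pf4 and Ppbp encode CXC chemokines of the alpha granule, platelet factor 4 and pro-platelet basic protein. Ppbp (ENSMUSG00000029372) lies on chromosome 5 of GRCm38 from 90768518 to 90770063, and Pf4 (ENSMUSG00000029373) from 90772435 to 90773383 on the same strand. Ppbp was at 10.79, 9.39, 10.96, 11.51 and 10.44 log2 CPM in the 5 B6 control mice. It was at 11.34, 11.07, 11.77, 10.75 and 11.10 in the resilient and at 11.82, 11.02, 12.32, 10.89 and 11.48 in the susceptible B6 mice. B6 control mouse 2 was the lowest of the 15 B6 mice and the groups overlapped. In D2, Ppbp was at 12.14, 11.05, 13.04, 12.04 and 12.26 in control and at 11.80, 12.26, 12.18, 11.83 and 10.55 in susceptible mice. The fitted mean of susceptible B6 mice was 0.89 above that of controls on the log2 scale (SE 0.40), and in D2 it was 0.38 below (log2 fold change -0.38, SE 0.40), -0.87 with the groups of the column names and -0.78 without both mice. Pf4 was at 9.69, 8.41, 9.77, 10.21 and 9.23 in control, at 10.01, 9.87, 10.40, 9.07 and 9.42 in resilient and at 10.36, 9.57, 10.91, 9.59 and 10.11 in susceptible B6 mice. Pf4 gave the smallest difference of the members between susceptible and control B6 mice (0.65, SE 0.36).

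Itga2b and Itgb3 encode the alpha-IIb and beta-3 subunits of the fibrinogen receptor. Itga2b was at 9.37, 8.05, 9.63, 9.53 and 8.85 in control, at 9.86, 9.80, 10.21, 9.10 and 9.30 in resilient and at 10.44, 9.54, 10.76, 8.99 and 10.18 in susceptible B6 mice. Its D2 values were 9.85, 8.66, 10.70, 9.90 and 9.41 in control and 9.40, 9.65, 9.96, 9.55 and 7.63 in susceptible mice, of which susceptible mouse 5 was the lowest of all 25 mice. Itgb3 was at 8.40, 7.30, 8.70, 8.67 and 7.90 in B6 control mice and at 9.84, 8.52, 9.72, 8.06 and 9.07 in B6 susceptible mice. Its D2 values were 8.08, 7.53, 8.98, 8.09 and 8.26 in control and 7.82, 8.03, 8.27, 7.85 and 6.38 in susceptible mice. The groups of each strain overlapped for both subunits. In susceptible against control B6 mice the log2 fold changes were 0.90 for Itga2b (SE 0.42) and 0.84 for Itgb3 (SE 0.37). In D2 they were -0.47 and -0.52, with the groups of the column names -0.86 and -0.72, and without both mice -0.83 and -0.77.

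Gp1ba, Gp1bb, Gp5 and Gp9 encode the subunits of the receptor for von Willebrand factor, and GPIb-alpha, the product of Gp1ba, carries its binding site. Gp1ba was at 2.63, 2.49, 3.70, 4.08 and 2.60 in B6 control mice. It was at 3.61, 3.39, 3.91, 3.24 and 3.40 in resilient and at 5.81, 3.31, 4.48, 3.32 and 3.64 in susceptible B6 mice. B6 susceptible mouse 1 was above every other mouse for Gp1ba, and without it the log2 fold change of susceptible against control mice went from 1.01 to 0.59. Gp5 was at 6.74, 5.22, 6.93, 6.99 and 6.10 in control and at 7.70, 6.74, 8.12, 6.34 and 7.46 in susceptible B6 mice. Gp9 ranged from 7.04 to 8.96 in control and from 8.29 to 9.81 in susceptible B6 mice, and Gp1bb from 2.45 to 4.15 and from 3.73 to 5.31. Between D2 control and susceptible mice the ranges were 8.51 to 10.16 and 7.74 to 9.58 for Gp9, and 6.23 to 8.17 and 5.34 to 7.56 for Gp5.

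Gp6 encodes the collagen receptor glycoprotein VI and Treml1 a receptor stored in the alpha granule. Gp6 was at 7.33, 5.78, 7.50, 7.90 and 7.09 in control and at 8.32, 7.37, 8.84, 7.19 and 7.95 in susceptible B6 mice. Treml1 ranged from 4.41 to 6.20 in control, from 5.65 to 6.67 in resilient and from 5.59 to 7.16 in susceptible B6 mice. For both genes B6 control mouse 2 and D2 susceptible mouse 5 were the lowest of their groups. Per kilobase of exon the order of levels was the same at the top in every group, with Ppbp above Pf4, Pf4 above Gp9 and Gp9 above Itga2b, and Gp1bb and Gp1ba came last. In B6 control mice Ppbp was at 10.50 ± 0.79 and Pf4 at 9.93 ± 0.68 on the scale of log2 CPM per kilobase (SD, n = 5). Their ranges overlapped between mice, but within a mouse Ppbp was above Pf4 in 25 of 25 mice. Gp5 was above Treml1 in 15 of 15 B6 mice and in 5 of 10 D2 mice, and Gp1bb above Gp1ba in 24 of 25. The place of Gp1bb in the order is uncertain. Its full exonic length was used, of which 92.9% is shared with exons of other genes. Itgb3 had rank 5 in the 3 B6 groups and rank 7 in both D2 groups.

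**Figure D1:**
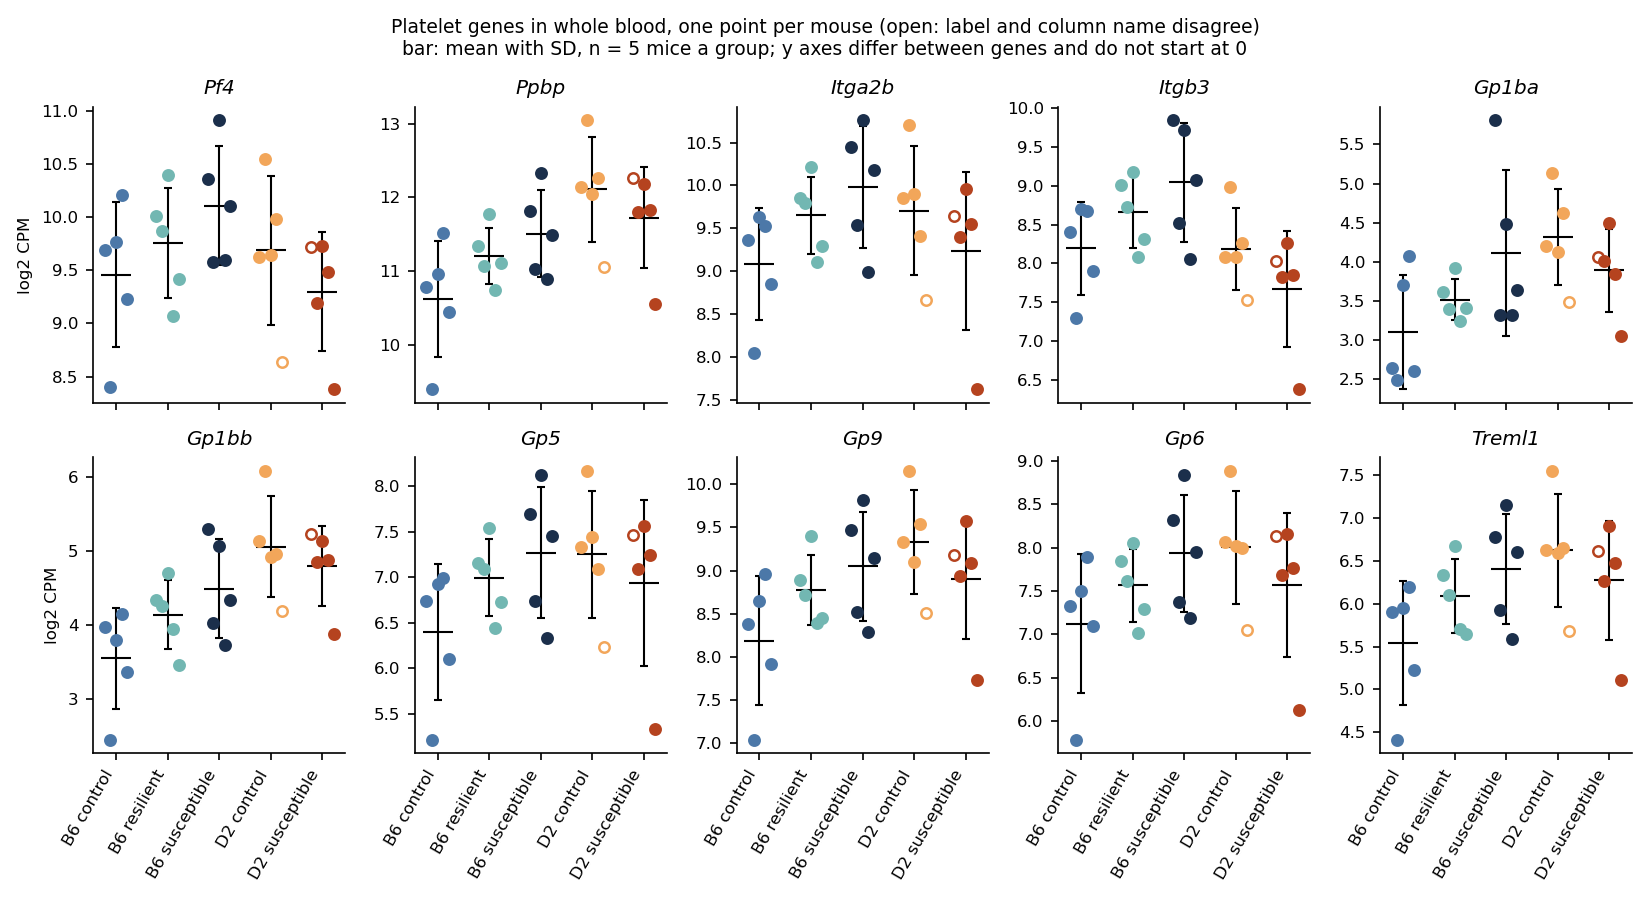
Level of each platelet gene in whole blood (y axis, log2 CPM) by group (x axis), with 1 point per mouse and a bar for the mean and SD of 5 mice. Open points are the 2 D2 mice whose label and column name disagree, and the lowest points of B6 control and D2 susceptible belong to the same mouse in every panel, B6 control mouse 2 and D2 susceptible mouse 5, with Ppbp at 9.39 and 10.55.

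To describe the response to CSDS within B6, the susceptible and resilient mice were set against the same controls, which both comparisons share. The mean of the 10 genes was 7.13 ± 0.69 in control, 7.63 ± 0.41 in resilient and 7.99 ± 0.67 in susceptible mice (log2 CPM, SD, n = 5). Each of the 5 susceptible mice was above the control mean, and 3 of them were above every control mouse. The median log2 fold change of the members was 0.87 in susceptible against control mice, or 1.83-fold, from 0.65 for Pf4 to 1.01 for Gp1ba, while the median of all genes was 0.02. By the criteria of the study, a fold change of 1.2 or more together with an unadjusted p below 0.05 in limma, 8 of the 10 members were called higher, where 4.5% of all genes were called. In this comparison 0 genes of the whole table passed an adjusted p of 0.05 in limma, and 610 had an unadjusted p under 0.05. The count of members went to 0 without control mouse 2, to 0 without susceptible mouse 1 and to 0 with sample weights. It went to 2 without control mouse 5, to 2 without susceptible mouse 3 and to 4 without susceptible mouse 5. With some other library left out it rose above 8, and the share of all genes called in these fits is not given here. The median without control mouse 2 was 0.59.

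Resilient mice lay between the other B6 groups. Against controls the members' median was 0.56, from 0.29 for Pf4 to 0.60 for Gp5, with 0 members called, where 2.11% of all genes were called, and 0.28 without control mouse 2. Against resilient mice the median of susceptible mice was 0.34, from 0.28 to 0.60, with 0 called and 2.03% of all genes called. Within mice whose names begin with EC3, the mean of the 10 genes was 1.33 higher in 2 susceptible than in 2 control mice and 1.21 higher in 3 resilient than in those 2 control mice, 1 of which is control mouse 2. Within EC4 it was 0.56 higher in 3 susceptible than in 3 control mice, whereas 2 resilient mice were lower than the 3 control mice (-0.17). The labels do not say what the name prefix stands for.

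**Figure D2:**
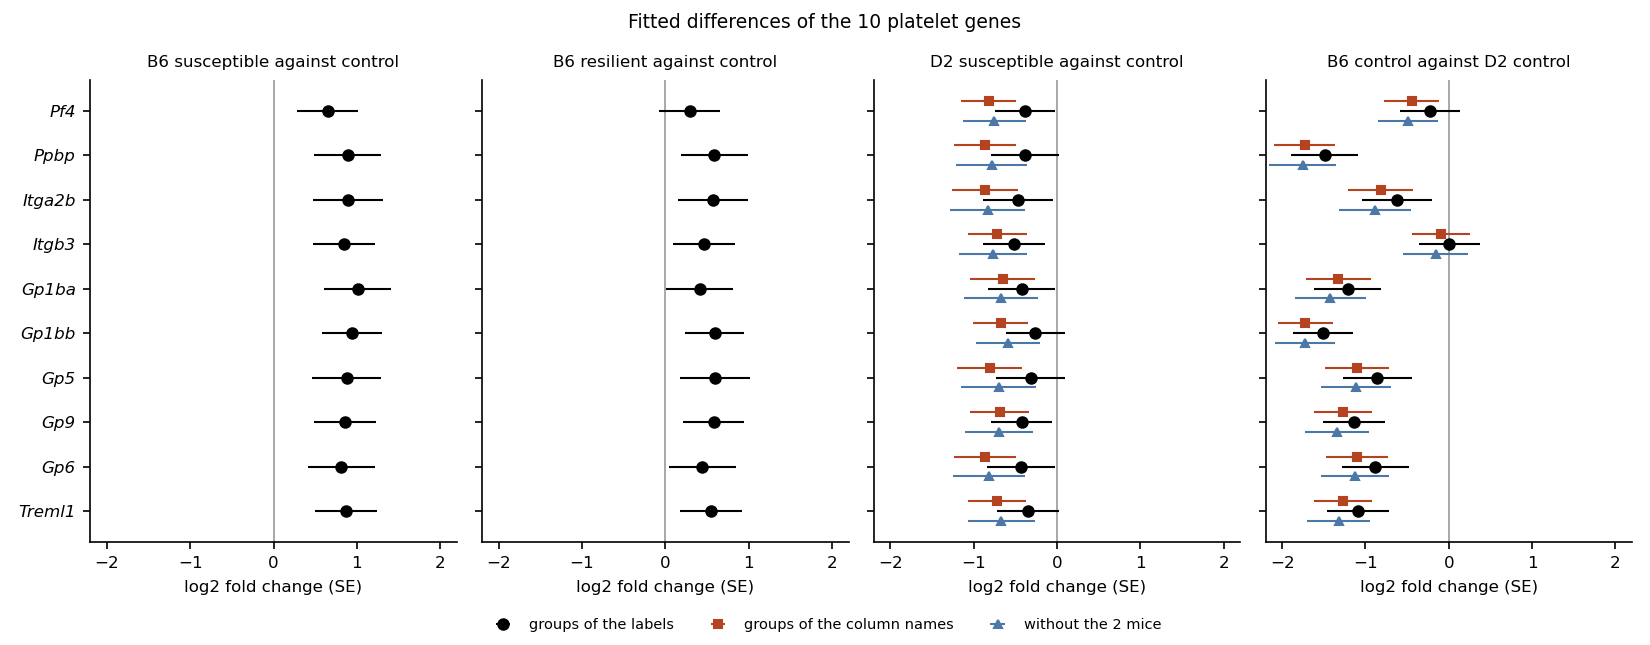
Log2 fold change of each platelet gene (x axis, points, with the SE as bars) in 4 comparisons. All points lie above 0 in both B6 comparisons with controls, all lie below 0 in D2, and in the panels with D2 mice squares use the groups of the column names and triangles leave out the 2 mice with conflicting names.

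In D2 the members were lower in susceptible than in control mice. Their mean was 8.03 ± 0.65 in control and 7.63 ± 0.71 in susceptible mice (log2 CPM, SD, n = 5), and the median log2 fold change was -0.41, from -0.52 for Itgb3 to -0.26 for Gp1bb. With the groups of the column names the median was -0.76, and without both mice it was -0.73. By the labels 0 members were called, where 1.57% of all genes were called, and by the column names 6 were called lower, where 6.8% of all genes were. Without both mice the count was 0, where 3.97% were. In limma, by the labels, 0 genes of the table passed an adjusted p of 0.05, and 225 had an unadjusted p under 0.05. By the labels the median was -0.08 without D2 susceptible mouse 5 and -0.19 without D2 control mouse 3. Those mice were the lowest and the highest of the 10 D2 mice. In the mean of the 10 genes, 1 of 5 susceptible mice was below every control mouse by the labels and 2 were above the control mean. By the column names 4 of 5 were below every control mouse, and without both mice 3 of 4, with 0 above the control mean in either grouping. D2 susceptible mouse 5 is the only susceptible mouse with the prefix ED6, where it was 1.91 below the mean of 3 control mice. With ED3, 1 susceptible mouse was 0.34 below 1 control mouse, and with ED4 the difference was 0.91 by the labels and -0.33 by the column names.

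The susceptible-control difference in D2 was set against that in B6. Across the members it was lower in D2 by a median of 1.26 on the log2 scale (median -1.26, from -1.44 for Gp1ba to -1.03 for Pf4), and 8 members were called, where 5.37% of all genes were called. By the column names 10 were called (median -1.64), where 10.1% of all genes were, and without both mice 10 (median -1.60), where 8.18% were. With sample weights 1 was called, and 2 without B6 control mouse 2, D2 control mouse 3 or D2 susceptible mouse 5, each left out alone. This difference uses the same control mice as the comparisons above.

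The strains were then compared in their control mice. Members were lower in B6 than in D2 by a median log2 fold change of -0.98, with 7 of 10 called lower, where 26.4% of all genes were called, 8 by the column names (median -1.19), where 29.8% were, and 7 without both mice (median -1.22), where 28.3% were. By the labels, Gp1bb (-1.51, SE 0.36), Ppbp (-1.49, SE 0.40) and Gp1ba (-1.21, SE 0.40) had the largest differences. Pf4 (-0.23, SE 0.36) and Itgb3 (0.01, SE 0.37) differed by less than their SE there. The D2 samples were aligned by the authors to a reference made from B6 mice, and the part of this in the counts of D2 mice was not tested. Within a mouse, Ppbp exceeded Pf4 by 0.99 to 1.68 log2 units in the 15 B6 mice and by 2.17 to 2.61 in the 10 D2 mice, with no overlap, and the mean D2 value was 1.09 higher. Itgb3 lay below Itga2b by a log2 difference between -1.11 and -0.61 in B6 and between -1.82 and -1.13 in D2, also without overlap. Itga2b exceeded Gp5 in the same mouse by 2.533 to 2.83 in B6 and by 2.18 to 2.5327 in D2, so these ranges all but touched. Gp9, Gp6, Gp1ba, Gp1bb and Treml1 overlapped between the strains when taken against Gp5. How many pairs among all genes separate the strains was not counted. Relative to the mean of the 10 genes, Itgb3 was at 0.85 to 1.25 in B6 and at -0.03 to 0.43 in D2, whereas Gp6 was at -0.27 to 0.22 and at -0.29 to 0.10. These ratios do not depend on the library scaling, nor on the groups of the 2 mice with conflicting names, which are both D2.

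**Figure D3:**
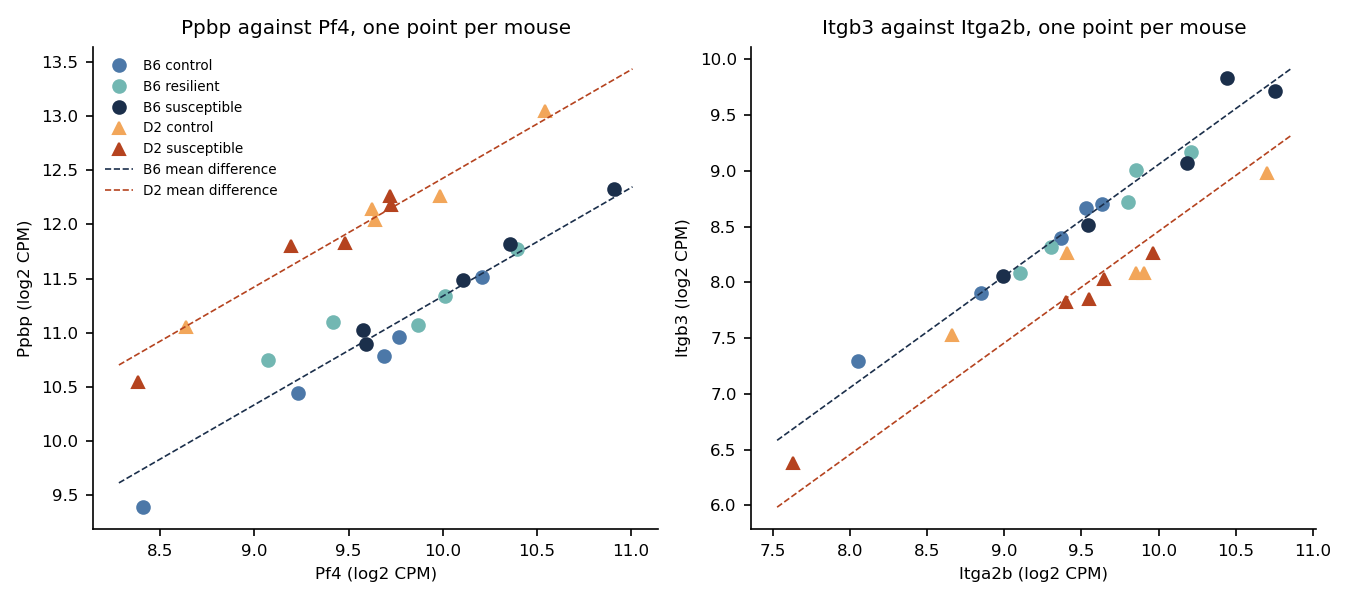
Ppbp against Pf4 (left) and Itgb3 against Itga2b (right), both axes in log2 CPM, with 1 point per mouse, circles for B6 and triangles for D2, and dashed lines at the mean difference of each strain. D2 mice lie above B6 mice at a like Pf4 level, by 1.09 on average in the difference Ppbp minus Pf4, and below them for Itgb3 at a like Itga2b level.

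The members varied together from mouse to mouse. After each gene was centred on its 5 group means, the 45 pairs of members had Pearson r from 0.74 to 0.99 over the 25 mice (median 0.95), and the closest pair was Itga2b and Gp5. These are descriptions over libraries that share their scaling and depth, and the median was 0.92 when reads were scaled to their own totals. Gp1ba followed the others least, with r from 0.74 to 0.85 with the other members. With the rank correlation of Spearman the lowest pair was Gp1ba and Gp5, at 0.84, and the median was 0.95. The spread within groups was 0.64 log2 units for Treml1 (SD), and 0.091 once the mean of the members was subtracted, against 0.69 and 0.38 for Gp1ba. Of the 13044 other genes with a symbol, the 10 most like the mean of the members were Mapk6, P2rx1, Slc2a3, Clu, Pttg1ip, Myl9, Hacd4, Cald1, Smim3 and Sh3bgrl2, with r from 0.989 to 0.993, and 9 of them were again among the first 10 when the 2 mice with conflicting names were left out. Of these 10, P2rx1 (an ATP-gated channel), Clu (clusterin, a granule protein), Myl9 (a myosin light chain) and Cald1 (caldesmon) were also in the list of other platelet genes. That list had a median r of 0.96 with the mean of the members, against -0.06 over all genes, and 36 of its 43 genes were above 0.8. The lowest were Tbxa2r (-0.39), Nbeal2 (-0.30) and Sparc (-0.22).

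Among the 43 other platelet genes, 15 rose in susceptible against control B6 mice and 0 fell, where 4.5% of all genes were called, with a median log2 fold change of 0.71. They were 4 of 13 receptors and adhesion genes, 5 of 10 genes of granule cargo and formation, 4 of 12 signalling genes and 2 of 8 cytoskeletal genes. Among them were the genes of the granule proteins Vwf (1.05, SE 0.39) and Thbs1 (0.98, SE 0.37), the lipoxygenase gene Alox12 (0.95, SE 0.38) and P2rx1 (0.91, SE 0.37), each with an adjusted p of 0.968 in limma. The count was 3 without control mouse 2, 1 without susceptible mouse 1 and 0 with sample weights. With some other library left out it rose above 15, and the share of all genes called in these fits is not given here. In resilient mice 0 were called against controls (median 0.36), and 0 between susceptible and resilient mice (median 0.30). In D2 1 gene fell, Bin2 (-0.39, SE 0.19, adjusted p = 0.999 in limma), where 1.57% of all genes were called, with a median of -0.38. This count was 18 by the column names (median -0.69, 6.8% of all genes called) and 7 without both mice (median -0.66, 3.97%). Between the strains, 17 were lower and 1 higher in B6 control mice, where 26.4% of all genes were called, 9 of them at an adjusted p under 0.05 in limma, with a median of -0.59. With the column names 23 were lower (median -0.62, 29.8% of all genes called) and without both mice 22 (median -0.72, 28.3%). P2rx1 (-1.68, SE 0.37), the cytoskeletal adaptor Parvb (-1.52, SE 0.36) and P2ry12, the ADP receptor that clopidogrel blocks (-1.28, SE 0.39), were lower in B6, and Selp, the gene of the granule adhesion receptor P-selectin, was higher (1.52, SE 0.34). For the difference between the strains in the response, 24 were called lower in D2 (median -1.07), where 5.37% of all genes were called, led by Vwf (-1.54, SE 0.55, adjusted p = 0.918 in limma). By the column names 35 were called (median -1.44, 10.1% of all genes called) and without both mice 34 (median -1.33, 8.18%).

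Of 6 transcription factors of megakaryocytes and erythroid cells, 0 were called in any comparison within a strain by the labels. In D2 2 were lower by the column names, where 6.8% of all genes were called, and 1 without both mice, where 3.97% were. Tal1, which both lineages use, was lower in B6 than in D2 control mice (-1.50, SE 0.31, adjusted p = 0.00105 in limma).

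**Figure D4:**
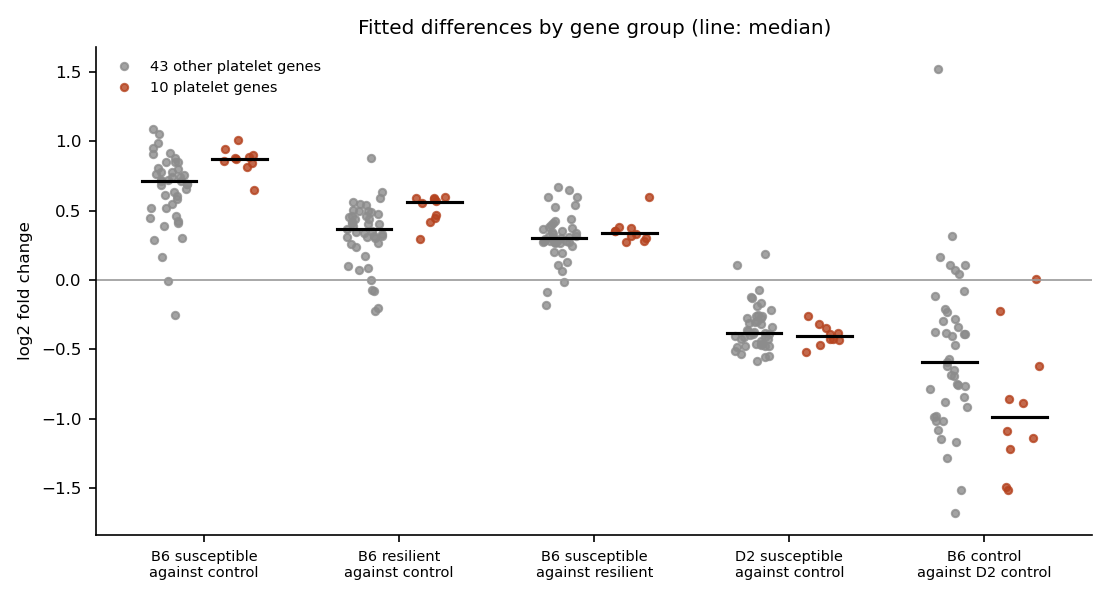
Log2 fold change (y axis) of the 43 other platelet genes (grey) and the 10 platelet genes (red) in 5 comparisons (x axis), with 1 point per gene and a line at the median. Both groups have medians above 0 in the B6 comparisons (0.71 and 0.87 in susceptible against control mice) and below 0 in D2 and between the strains.

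Markers of the other blood cells were read beside these values. In susceptible against control B6 mice 0 of 12 neutrophil, 9 erythroid, 8 monocyte, 8 B cell, 9 T cell and 8 NK cell markers were called, with medians from -0.22 (NK cells) to 0.25 (neutrophils). The markers of vessel wall and muscle, which could enter with trunk blood, had a median of 0.74 with 0 of 7 called, at a summed share of 0.00135% to 0.00636% of reads in control and 0.00200% to 0.00862% in susceptible mice, and the endothelial gene Cdh5 had 2 to 20 reads in these groups. No marker of these lists was at 0 in every mouse. In D2, neutrophil markers had a median of -0.50 by the labels, 0.12 by the column names and -0.23 without both mice, with 0 called in each. Erythroid markers had medians of 0.32, -0.20 and 0.09 there, also with 0 called. Of 8 B cell markers 0, 4 and 2 were called higher in susceptible D2 mice in these groupings, where 1.57%, 6.8% and 3.97% of all genes were called. Between the strains, where 26.4% of all genes were called, 6 of 9 erythroid, 8 of 8 B cell and 3 of 8 NK cell markers were called higher in B6 control mice, and 4 of 9 T cell, 2 of 12 neutrophil, 2 of 8 monocyte and 2 of 7 vessel wall and muscle markers lower. The last 3 shares are near that of all genes, and nothing is read from them. In both other groupings 4 erythroid and 8 B cell markers were higher and 5 T cell markers lower, where 29.8% and 28.3% of all genes were called. Erythroid markers took 12.2% to 16.1% of the reads in B6 control and 8.09% to 11.6% in D2 control mice. Across the 25 mice, centred on group means, the mean of the members had r of 0.46 with the mean of the erythroid markers, -0.67 with B cell markers and 0.09 with neutrophil markers. With both scaled to their own totals the value for erythroid markers was -0.24. The mean of the members had r of -0.61 with the ratio of effective library size to reads, and -0.10 when the members were scaled to their own totals. With that scaling the median of all genes shifted by -0.15 in resilient and by -0.13 in susceptible against control B6 mice, and the members' medians relative to all genes were 0.53 and 0.83, against 0.54 and 0.86. The part of these quantities in the differences of the platelet genes was not tested.

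**Figure D5:**
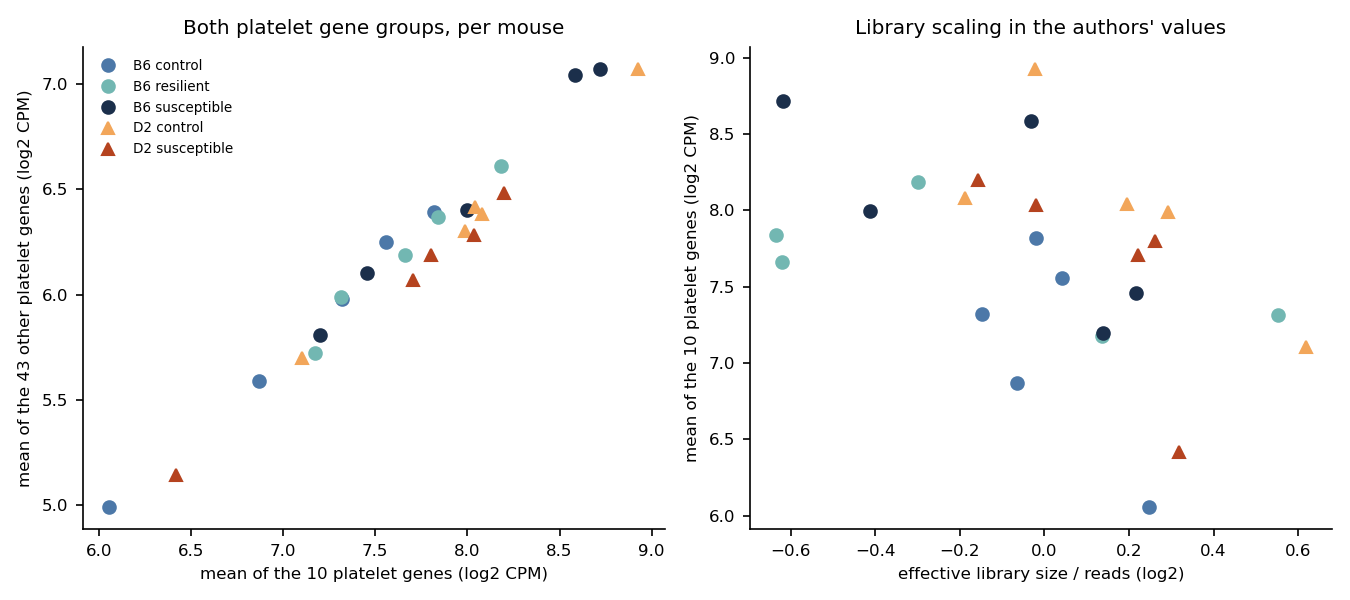
Mean of the 43 other platelet genes against the mean of the 10 platelet genes (left, log2 CPM) and the latter against the log2 ratio of effective library size to reads (right), with 1 point per mouse, circles for B6 and triangles for D2. The means of both gene groups rise together (centred r of 0.99), and the members' mean is lower where the ratio is high (centred r of -0.61).

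miRNA libraries of the same 25 mice gave a measure that the choice of the genes did not use. Of 6 miRNAs known to be abundant in platelets, 3 were in the table used here, miR-126a-5p, miR-191-5p and miR-21a-5p. RefSeq gave the mature sequences of those with a called difference, with the seed (bases 2 to 8) in capitals.
miR-191-5p (chr9:108568325-108568347, plus strand, GRCm38.p6): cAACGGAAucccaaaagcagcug
miR-21a-5p (chr11:86584120-86584141, minus strand, GRCm38.p6): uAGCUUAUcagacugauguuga
Their seeds differ. None of the 3 was called between the B6 groups, where 4.01%, 4.35% and 3.01% of 299 miRNAs were called in susceptible against control, resilient against control and susceptible against resilient mice, and in limma all 3 had an unadjusted p of at least 0.354. The intervals of the susceptible-control difference in B6 were -0.72 to 0.42 for miR-126a-5p, -0.26 to 0.25 for miR-191-5p and -0.39 to 0.23 for miR-21a-5p (95%, limma).

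In D2, miR-21a-5p was at 16.44, 16.15, 16.50, 16.67 and 15.94 log2 CPM in control and at 16.29, 16.37, 15.88, 16.07 and 15.38 in susceptible mice. The groups overlapped, and susceptible mouse 5, the lowest for the platelet genes, was the lowest here too. The log2 fold change was -0.34 (SE 0.15, adjusted p = 0.539 in limma, two-sided exact permutation p = 0.159), and it was called where 8.7% of miRNAs were. By the column names it was -0.43 (exact permutation p = 0.0556) and without both mice -0.48 (exact permutation p = 0.0857), called in both, where 12.4% of miRNAs were. Between the control mice of the strains, where 25.4% of miRNAs were called, miR-191-5p was lower in B6 (-0.45, SE 0.12, adjusted p = 0.0125 in limma). Its ranges of 13.13 to 13.50 in B6 and 13.51 to 14.02 in D2 did not overlap, and the two-sided exact permutation p of 0.00794 is the smallest that 5 against 5 mice can give (0.198 after adjustment over 25 tests). The difference was -0.46 by the column names, where 28.4% of miRNAs were called, and without both mice -0.43, where 27.8% were, and it was called in both. miR-21a-5p was higher in B6 control mice (0.35, SE 0.15, adjusted p = 0.124 in limma, exact permutation p = 0.0476). The difference was 0.31 by the column names and still called (exact permutation p = 0.0476), and without both mice it was 0.30 and no longer called (exact permutation p = 0.0952). Over the 25 mice, centred on group means, the mean of the platelet genes had r of 0.44 with miR-21a-5p, -0.44 with miR-191-5p and -0.26 with miR-126a-5p. It had r of -0.23 with miR-451a, which is abundant in erythroid cells, and -0.71 with miR-150-5p, which is abundant in lymphocytes.

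In mRNA bound to AGO2, the protein that carries miRNAs, from the BNST of B6 mice, a small nucleus of the extended amygdala,, 3 members were in the table, Itga2b, Itgb3 and Gp1bb. Each library was a pool of BNST tissue, with 5 control, 5 resilient and 4 susceptible pools. Their median levels were 2.11, 2.66 and 2.72 log2 CPM against 9.55, 8.27 and 4.33 in blood, and Itga2b had 4 to 63 reads in a pool. Itga2b was called higher in susceptible against control pools (log2 fold change 1.11, SE 0.43, adjusted p = 0.146 in limma), where 18.9% of all genes were called, and the other 2 were not. Of the 35 members and other platelet genes in this table, 9 were called there (2 higher and 7 lower). In resilient against control pools 4 were called, where 17.7% of all genes were, and in susceptible against resilient pools 1, where 2.14% were. These counts are not far from the shares of all genes, and nothing about platelet genes is read from them. Nbeal2, which granule formation needs, passed the adjustment in limma in susceptible (0.86, adjusted p = 0.00911) and resilient pools (0.69, adjusted p = 0.0217). In blood this gene did not follow the members (r of -0.30). The genes that were lower include P2ry12, which microglia express as well.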

How the data were processed

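Whole-blood mRNA and miRNA were sequenced from the same 25 mice, and AGO2-bound mRNA from 14 pools of 3 BNST each. Per the study's methods, blood RNA was depleted of globin and ribosomal RNA and made into stranded total RNA libraries, and AGO2-bound RNA into stranded mRNA libraries. Their reads were aligned with STAR to GRCm38 and counted with HTSeq on Ensembl genes, and genes with 1 CPM in at least 6 blood or 3 AGO2 libraries were kept. The deposited values are log2 CPM that the authors made with voom on effective library sizes. They gave back whole reads within 0.0001 read, which is where the depths come from. Depth was 6916739 to 10113657 reads for miRNA and 3701281 to 10659882 for AGO2 libraries.

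Each deposited table was fitted over all its features and groups with limma 3.58.1 in R 4.3.3 (empirical Bayes with a mean-variance trend, Benjamini-Hochberg adjustment over the table). The study adjusted AGO2-bound mRNA for experimental cohort. The AGO2 values used here give back whole reads and so lack that adjustment, and the fit has no cohort term. Calls needed a fold change of 1.2 or more with an unadjusted p below 0.05. The fit was tested on simulated data. The members and gene lists were chosen with earlier results of these data known. Named genes are the 10 members, for each comparison up to 5 called genes with the largest log2 fold change among other platelet genes and transcription factors, the 10 genes most like the members' mean, and the listed miRNAs. 1 gene that this rule names is not reported here by name and stays in the counts. The genes with lower levels in AGO2-bound mRNA and those with the lowest r were named after their values were seen. Single miRNAs were also tested with exact permutation tests (scipy 1.17.1). Replicate numbers of blood mice only name mice. The p-values rest on the spread between mice in blood and between pools in AGO2-bound mRNA. Alternatives were other groupings of the 2 D2 mice, scalings, weights, filters and samples, and leaving out each library. AGO2-bound miRNA was not used here.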

Additional observations from a re-analysis of the deposited data

Results flagged for a closer look

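D2 susceptible mouse 5 lay far below the other 4 D2 susceptible mice in 6 of the 10 platelet genes and in their mean, by Dixon's criterion for a group of 5 and the groups of the labels. It was at 10.55 log2 CPM for Ppbp, 7.63 for Itga2b, 6.38 for Itgb3, 3.89 for Gp1bb, 5.34 for Gp5 and 6.13 for Gp6. The mean of the 10 genes was 6.42 in this mouse. In all, 80 groups of 5 mice were examined and 7 met the criterion, where chance gives about 1 in 20, and since the platelet genes vary together these 7 are not separate events. By the column names D2 control mouse 2, which is also low, joins the group, and none of the 10 genes nor their mean met the criterion (ratio of gap to range 0.385 for the mean, against 0.723 by the labels). Without both mice with conflicting names none met the stricter criterion for 4 mice. By the labels, the median difference of the platelet genes between D2 susceptible and control mice was -0.08 without D2 susceptible mouse 5, against -0.41 with it.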

How the results depend on the processing

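Of 907 comparisons of a result with an alternative other than leaving out a library, 879 kept their direction and side of the threshold. In susceptible against control B6 mice, array weights left 0 members and 0 other platelet genes called, and a term for the name prefix left 5 members. In resilient against control B6 mice 1 other platelet gene was called with the column names, with quantile normalization and with the compared groups alone. In D2, the column names gave 6 members and 18 other platelet genes, leaving out both mice 7 other platelet genes, quantile normalization 4, array weights 3, and the fits without trend, with the compared groups alone or with the prefix 0. For the difference between the strains in the response, array weights left 1 member and 8 other platelet genes. With quantile normalization miR-21a-5p went to -0.13 in resilient against control and to 0.043 in susceptible against resilient mice, and miR-191-5p to -0.0019 in D2. In D2, miR-150-5p was 0.38 by the column names and 0.04 without both mice, miR-451a was 0.069 with the prefix, and 0 platelet miRNAs were called without trend or with quantile normalization. Without both mice 1 was called between the strains. The causes were not tested.

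Leaving out 1 library at a time, members called ranged from 0 to 10 in susceptible against control B6 mice and from 2 to 10 for the difference between strains. The share of all genes called in each of these fits is not given here, and nothing is read from the counts. Other platelet genes called ranged from 1 to 31 and from 9 to 34 there, from 0 to 2 in resilient against control, from 0 to 8 in susceptible against resilient, from 0 to 3 in D2 and from 10 to 23 between the strains. Platelet miRNAs called ranged from 0 to 2 in D2 and from 1 to 2 between the strains. In susceptible against control B6 mice miR-191-5p ranged from -0.048 to 0.044, miR-150-5p from -0.43 to 0.040, miR-451a from -0.073 to 0.085 and miR-126a-5p from -0.26 to 0.045. In resilient against control mice miR-21a-5p ranged from -0.015 to 0.075 and miR-191-5p from -0.12 to 0.026. In susceptible against resilient mice miR-191-5p ranged from -0.030 to 0.12 and miR-126a-5p from -0.0061 to 0.31, and in D2 miR-451a from -0.15 to 0.12. AGO2 platelet genes called ranged from 3 to 8 in resilient against control and from 0 to 2 in susceptible against resilient pools. With a replicate block the AGO2 counts were 8, 3 and 1, and the numbers are not known to pair the pools. A prefix term could not be fitted between the strains, which share no prefix.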
